A study of Homo sapiens with 8 samples.

Results

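The mRNAs of 2 families of splicing regulators, the heterogeneous nuclear ribonucleoproteins (hnRNP) and the serine/arginine-rich splicing factors (SRSF), were described in input RNA and in ribosome footprints. Members were all entries of the deposited table with an HNRNP or SRSF symbol, apart from pseudogenes numbered with a P and antisense genes. The rule that picks them reads the symbols and no measured value, although these families were taken up with earlier results of the data known. They numbered 38 of 26902 entries, 26 hnRNP and 12 SRSF. All cells were U2OS, an established human osteosarcoma line, and all had been exposed to 0.5 mM sodium arsenite (NaAsO2), an oxidative stressor, for 1 h before harvest. Groups differed by construct (empty vector, or overexpression of QKI7, 1 of the splice forms of the RNA-binding protein Quaking) and by library type (rRNA-depleted input RNA, or ribosome-protected fragments of 17 to 34 nt), with 2 libraries in each of the 4 groups. The labels do not tie the numbered libraries to separate cultures, so the tests rest on a spread between libraries that may be technical. U2OS is a tumour line, and the labels give neither the vector's promoter nor whether the overexpressing cells are 1 clone. Unstressed cells were not analysed here, so nothing below bears on arsenite.

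hnRNP proteins coat nascent transcripts in the nucleus. Many of them block splice sites or export RNA, and several also act on mRNA stability and translation in the cytoplasm. SR proteins carry 1 or more RNA recognition motifs and a tail rich in arginine and serine, bind exonic enhancers and recruit the spliceosome. Members of both families are known to limit their own levels through splicing of their own pre-mRNA, often by including an exon or intron that makes the transcript a target of nonsense-mediated decay or keeps it in the nucleus. Both families respond to cell stress with changes in localisation and, for SR proteins, in phosphorylation.

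The deposited values are TPM, transcripts per 1000000, a length-corrected share of the reads. Protein-coding mRNA took 3.72% to 4.51% of TPM in the inputs and 0.611% to 0.630% in the footprints, where entries with ribosomal RNA symbols took 96.8% to 97.3%, so TPM of an input and a footprint are not on 1 scale. Changes are therefore given among protein-coding mRNAs, as a log2 difference after each library was centred on its median tested mRNA. Tests with limma covered the 2686 genes whose mean reached 1 TPM over the inputs and 0.2 TPM over the footprints. Of the members 25 passed this floor, 16 hnRNP and 9 SRSF. TPM keeps no read depth, so the reads behind a value are unknown. Between replicate libraries the tested members differed by a median of 0.0610 (log2) in vector inputs, 0.0487 in QKI7 inputs, 0.101 in vector footprints and 0.0584 in QKI7 footprints. QKI stood at 3.01 and 3.45 TPM in the vector inputs and at 1749 and 1580 TPM in the QKI7 inputs. Of 10 bone and mesenchymal markers 4 reached 1 TPM in an input (VIM, COL1A1, SPARC and FN1). COL1A2 and the osteoblast markers RUNX2, ALPL, SP7, BGLAP and IBSP did not, nor did any of 12 epithelial, blood and neural markers, which reached 0.57 TPM at most.

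A short motif stood at the annotated start of some of the members' genes. RefSeq (GRCh38.p14) held start sequences for 35 of the 38 members; HNRNPA1, HNRNPCL3 and SRSF2 had no entry. The motif CCATNTT, which the transcription factor YY1 recognises, was searched on both strands within 15 bases either side of each annotated start. It was picked after the start sequences had been seen. It occurred in 5 of 35 members (14.3%), against 348 of 15843 protein-coding genes (2.20%). Among tested genes with an entry it occurred in 4 of 23 members (17.4%), against 94 of all 2142 (4.39%). The 5 members were HNRNPA3, HNRNPCL4, HNRNPD, HNRNPUL1 and SRSF1, of which HNRNPCL4 was near 0 TPM. In the whole 300 bases of each entry it occurred in 28.6% of members (8 of 24 hnRNP and 2 of 11 SRSF genes) and in 18.6% of protein-coding genes. Among tested genes it occurred there in 9 of 23 members (39.1%) and in 25.2% of all. A match is a description of these letters, not of a bound site. The windows below, 5′ to 3′ with the motif in capitals, belong to members on which the results turn: HNRNPD and HNRNPUL1, whose footprints were higher with QKI7, HNRNPC and HNRNPA2B1, whose footprints were lower, and SRSF1 and SRSF3, near opposite ends of the footprint-over-input order.
HNRNPD, chr4:82373977-82374006, minus strand: acgcgccgttcttccgtcggCCATTTTagg
HNRNPUL1, the second of 3 annotated starts, chr19:41264357-41264386, plus strand: gcggtggcggcggCCATTTTgagccgctgc
SRSF1, chr17:58007232-58007261, minus strand: cgagctgataaaggcgCCATTTTggagggg
HNRNPC, chr14:21269428-21269457, minus strand: cttcgcctcggcggcagaggagactcgggg
HNRNPA2B1, chr7:26200732-26200761, minus strand: agcggctctagcggcagtagcagcagcgcc
SRSF3, chr6:36594347-36594376, plus strand: ggagaaggcggtggtccgccatttcgtgga
The 4 tested members with the motif, HNRNPA3, HNRNPD, HNRNPUL1 and SRSF1, all lay below the median mRNA in footprint over input in vector cells (described further on), as did 11 of the 19 other tested members with an entry. This count has no test, since the motif was chosen on these sequences.

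In inputs, HNRNPA2B1 and HNRNPA1 led the hnRNP family and SRSF5 and SRSF2 the SRSF family. HNRNPA2B1, an abundant nuclear RNA-binding protein that also takes part in RNA sorting, stood at 81.4 and 91.5 TPM in vector and 105 and 99.3 TPM in QKI7 inputs. HNRNPA1, a splicing repressor that antagonises SRSF1 at many splice sites, stood at 63.6 and 68.5 TPM in vector and 58.5 and 54.9 TPM in QKI7 inputs. SRSF5, an SR protein with tandem RNA recognition motifs, had 56.9 and 60.2 TPM in vector and 77.0 and 69.8 TPM in QKI7 inputs. The other tested hnRNP mRNAs lay between the 1.64 TPM of HNRNPA0 and the 41.7 TPM of HNRNPH1, and the other tested SRSF mRNAs between the 4.91 TPM of SRSF7 and the 33.5 TPM of SRSF2, in single libraries.

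The order was different in footprints. HNRNPA1 led with 20.0 and 21.6 TPM in vector and 17.0 and 17.5 TPM in QKI7 footprints, well above HNRNPA2B1 at 5.80, 6.04, 4.57 and 4.58 TPM. SRSF3, one of the smallest SR proteins and a regulator of RNA export, led its family with 5.87, 5.62, 5.14 and 5.38 TPM, although in inputs it was among the lowest of the tested SRSF mRNAs, at 7.02, 6.67, 6.71 and 6.37 TPM. SRSF3 made up 3.39% to 4.25% of summed SRSF TPM in the inputs and 34.8% to 37.5% in the footprints. HNRNPA1 made up 14.3% to 18.0% of summed hnRNP TPM in the inputs and 36.6% to 38.4% in the footprints. Each of the 2 mRNAs thus held a larger part of its family in every footprint library than in any input library.

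**Figure D1:**
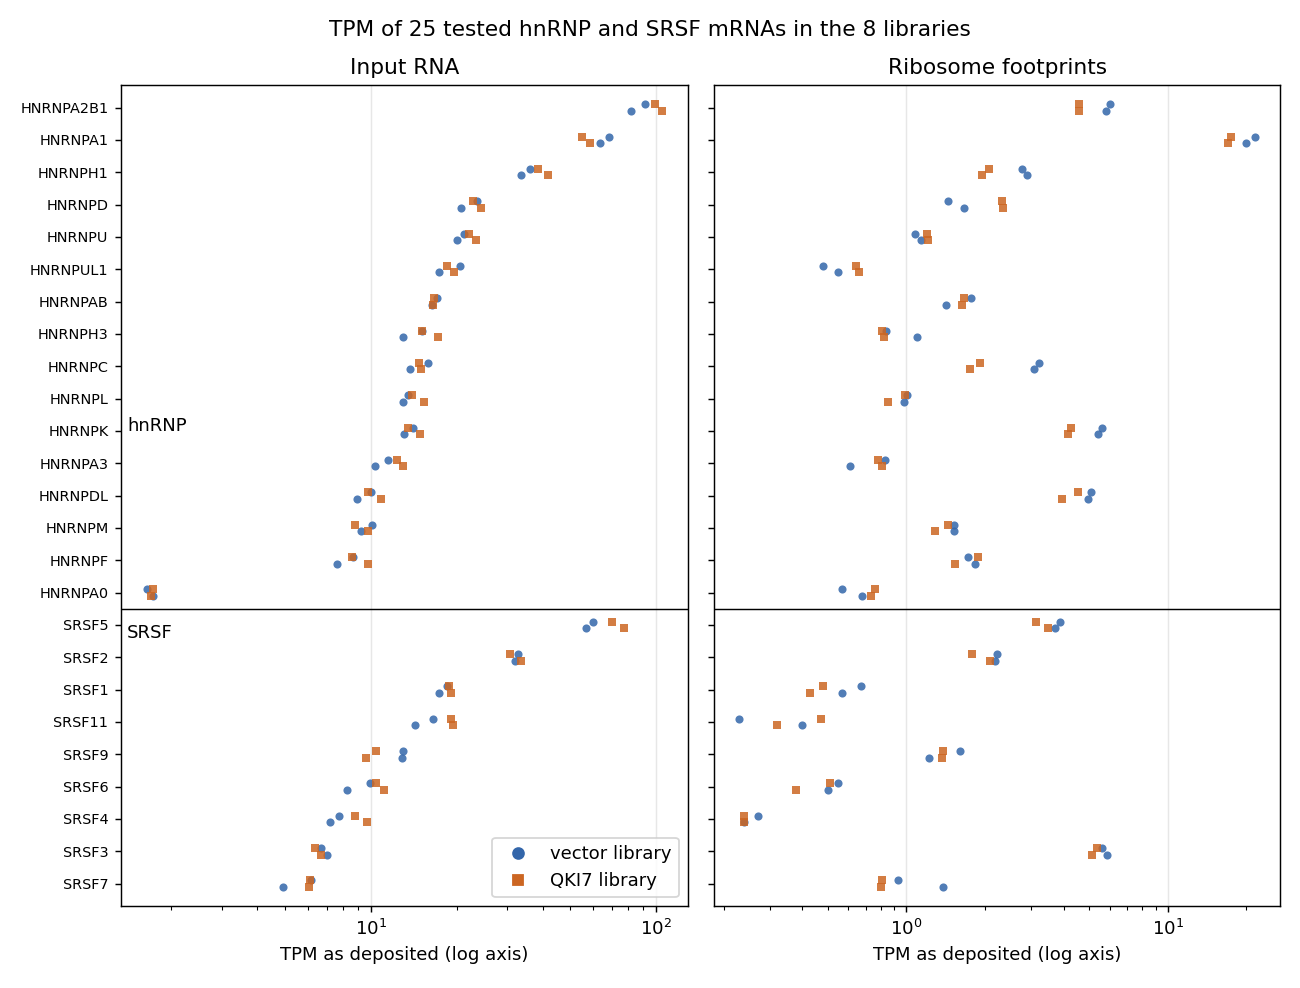
TPM as deposited (log axis) of the 25 tested members, 16 hnRNP above and 9 SRSF below, ordered by mean input TPM; each point is 1 library, circles for vector and squares for QKI7. SRSF3 is near the bottom of its family in inputs and at its top in footprints, between 5.14 and 5.87 TPM, and HNRNPA1 passes HNRNPA2B1 in footprints.

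As sums over all protein-coding members, hnRNP TPM exceeded SRSF TPM by 2.05 to 2.20 times in the 4 inputs and by 3.18 to 3.47 times in the 4 footprints. The ranges did not overlap. Without HNRNPA1 and SRSF3 the ratios were 1.82 to 1.89 in inputs and 3.10 to 3.39 in footprints. The wider gap in footprints was thus also present with both mRNAs left out together. In footprints they held similar parts of their families, so leaving out both does not show what HNRNPA1 alone adds. The ratio without HNRNPA1 alone was not taken.

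Footprint over input asks how many ribosome-protected fragments an mRNA carried for its RNA level, here relative to the median tested mRNA. Among the tested members SRSF mRNAs were mostly low, and hnRNP mRNAs lay on both sides in about the shares of all tested genes. The floor on footprints leaves out members with few footprints for their RNA. These were HNRNPR, HNRNPUL2, HNRNPLL and HNRNPA1L2 in the hnRNP family and SRSF10 in the other, so the family counts and medians leave out low members. In vector cells 6 of 9 SRSF mRNAs were lower and 2 higher than the median tested mRNA, and 9 of 16 hnRNP mRNAs were lower and 7 higher (limma adjusted p under 0.05). The hnRNP call for HNRNPM, at 0.22, was kept in 2 of 8 analyses without 1 library. This contrast calls 79.8% of all tested genes, 39.2% higher and 40.5% lower, so the sizes say more than the counts. The median was -1.07 for SRSF, -0.62 for hnRNP and -0.01 for all tested genes. In QKI7 cells, where 75.8% of genes are called, the medians were -1.31, -0.18 and 0.01, with 6 SRSF lower and 1 higher, and 7 hnRNP lower and 6 higher. The hnRNP median exceeded the SRSF median by 0.45 in vector and 1.14 in QKI7 cells, a description that carries no test since members are not replicates. The difference was -0.045 on the deposited scale, 0.28 with no floor and 0.88 with a stricter floor in vector cells. In QKI7 cells it was 0.23 on the deposited scale, 0.50 with no floor and 0.44 with the stricter floor.

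Among SR proteins, SRSF3 and SRSF11 marked the ends. SRSF3 was 2.62 above the median mRNA in vector cells (SE 0.0818, limma adjusted p = 9.39e-09) and 2.83 above it in QKI7 cells. SRSF11, an SR-like protein, had 14.3 and 16.6 TPM in vector inputs but 0.40 and 0.23 TPM in vector footprints, a difference of -2.76 (SE 0.251, adjusted p = 9.36e-06). SRSF1, the best studied SR protein and an oncogenic splicing activator, stood at -1.96 in vector cells (SE 0.105, adjusted p = 2.75e-07): its inputs held 17.4, 18.5, 19.2 and 18.9 TPM and its footprints 0.57, 0.67, 0.43 and 0.48 TPM, in the order vector then QKI7. SRSF4 had the same value to 2 decimals, -1.96 (SE 0.122), with footprints of 0.24 and 0.27 TPM in vector and 0.24 TPM in each QKI7 library.

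Some close relatives within the SRSF family lay near each other and others apart; differences between members were not tested. SRSF5 and SRSF6, which resemble SRSF4 in domain layout, stood at -1.07 (SE 0.0704) and -1.21 (SE 0.144) in vector cells, near each other, with SRSF4 lower. SRSF9, the closest relative of SRSF1, stood at -0.32 and was not called (adjusted p = 0.0502). SRSF7, the closest relative of SRSF3, stood at 0.60 (SE 0.18, adjusted p = 0.0133), with footprints of 1.38 and 0.93 TPM in vector and 0.80 and 0.81 TPM in QKI7 cells. On the log2 scale its 2 vector footprints were further apart than those of any other tested SRSF mRNA but SRSF11, and the call was lost without vector footprint replicate 1 and without vector input replicate 1 (values from 0.31 to 0.90 over the libraries left out). With equal sums and no centring it was 0.33 (limma adjusted p = 0.118). SRSF2, which sits in nuclear speckles, had footprints of 2.18, 2.22, 2.09 and 1.79 TPM for inputs of 32.0, 32.9, 33.5 and 30.7 TPM, a difference of -0.90 in QKI7 cells.

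Relatives within the hnRNP family also lay on both sides of the median mRNA. HNRNPDL, a paralogue and chromosome 4 neighbour of HNRNPD, stood highest of the family in vector cells, at 1.97 (SE 0.0777, adjusted p = 3.92e-08), with inputs of 8.93 and 10.0 TPM and footprints of 4.97 and 5.08 TPM in vector cells. HNRNPD itself, also called AUF1 and known for binding AU-rich elements, stood at -0.95. In the A/B group HNRNPA0 and HNRNPA1 were 1.43 and 1.22 above the median mRNA, while HNRNPA2B1 and HNRNPA3 were at -0.98 and -1.04. Of the F/H group HNRNPF stood at 0.70, and HNRNPH1 and HNRNPH3 at -0.73 and -0.98. HNRNPK, a KH-domain protein that binds C-rich RNA, stood at 1.58. HNRNPUL1 and HNRNPU, which share a SAP domain and take part in nuclear RNA and chromatin functions, were the lowest hnRNP mRNAs, at -2.30 and -1.33. HNRNPUL1 had inputs of 17.4 and 20.5 TPM and footprints of 0.55 and 0.48 TPM in vector cells.

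**Figure D2:**
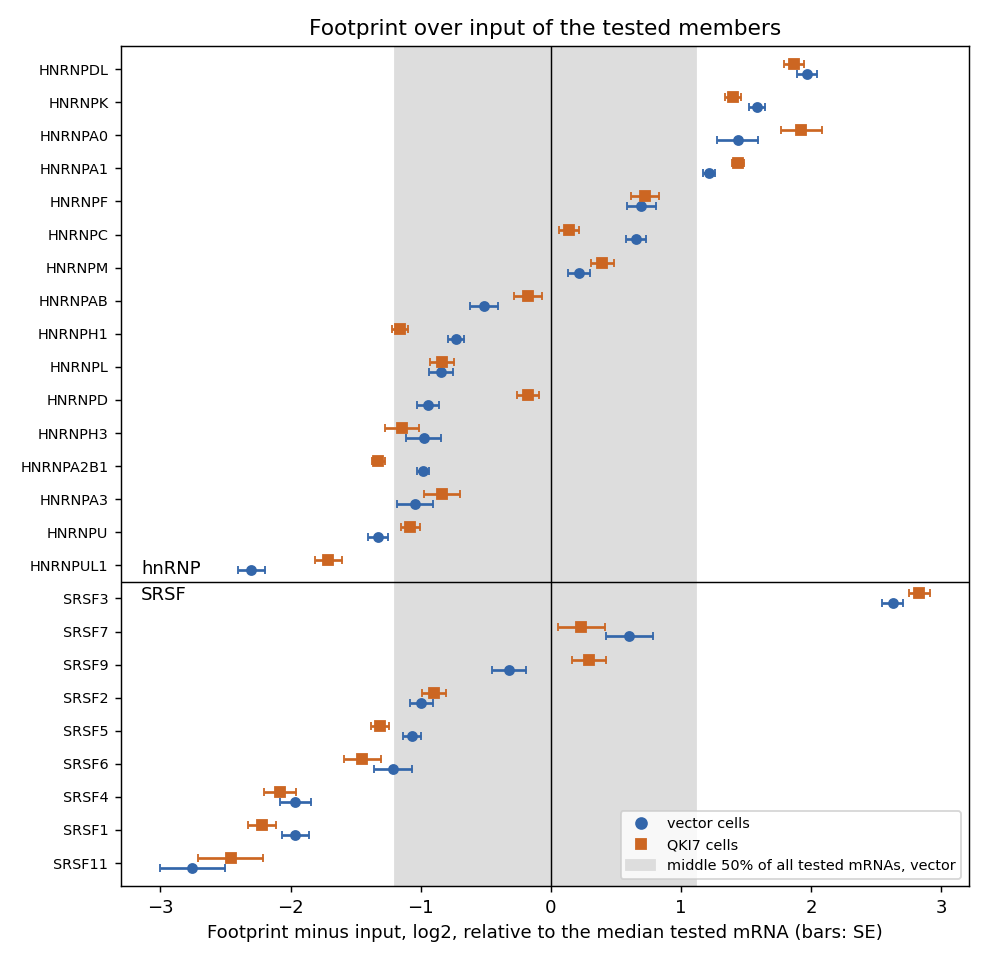
Footprint minus input (log2, relative to the median tested mRNA) of the 25 tested members in vector cells (circles) and QKI7 cells (squares), with SE bars; the grey band runs from the lower to the upper quartile of all tested mRNAs in vector cells (-1.2 to 1.11). SRSF3, HNRNPDL, HNRNPK, HNRNPA0 and HNRNPA1 lie above the band and SRSF11, SRSF1, SRSF4, SRSF6 and HNRNPUL1 below it in both constructs; on the deposited scale every member lies below 0, and HNRNPA2B1, HNRNPA3, HNRNPAB, HNRNPC, HNRNPD, HNRNPH1, HNRNPH3, HNRNPL, HNRNPM and SRSF9 change side under another floor in 1 or both constructs.

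The place of 0 on this scale is set by the genes tested. With all 10167 protein-coding entries above 0 in each library, HNRNPA2B1, HNRNPAB, HNRNPD, HNRNPH1, HNRNPH3, HNRNPL and SRSF9 in vector cells and HNRNPA3, HNRNPAB, HNRNPD and HNRNPL in QKI7 cells moved above 0. With a stricter floor HNRNPM in both constructs and HNRNPC and SRSF9 in QKI7 cells moved below 0, and HNRNPC in vector cells and HNRNPF came to 0.00 to 0.04 and were not called. Without a floor 3 of the 6 low SRSF mRNAs lost their calls in vector cells: SRSF2 at -0.0036 (limma adjusted p = 0.975), SRSF5 at -0.075 (adjusted p = 0.368) and SRSF6 at -0.22 (adjusted p = 0.205). SRSF2 also did in QKI7 cells, at -0.025 (adjusted p = 0.821). SRSF1, SRSF4, SRSF11, HNRNPU and HNRNPUL1 stayed called below 0, and SRSF3, HNRNPA0, HNRNPA1, HNRNPDL and HNRNPK above it, under every floor they passed. TPM divides by transcript length while footprints come from the coding part, and the part of this order that coding length sets was not tested.

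QKI7 against vector in inputs asks which of these mRNAs changed in level. In the main fit HNRNPA1 fell and no other member passed the test. HNRNPA1 (Entrez gene 3178, chromosome 12, 54280726 to 54287087) changed by -0.36 (SE 0.0445, limma adjusted p = 0.00167), a fold of 0.781. Both QKI7 inputs lay below both vector inputs. In all 7.82% of tested genes were called, 1.38% higher and 6.44% lower, so 1 of 25 members (4%) is no more than the background. SRSF9 had a larger difference, -0.50 (SE 0.132), from 12.8 and 12.98 TPM to 9.61 and 10.4 TPM, but its adjusted p was 0.0554. SRSF9 passed without vector footprint replicate 1 or 2, which changes the shared spread. It also passed with equal sums, with a pseudocount of 10 and in the fit on inputs alone. At an unadjusted p under 0.05, 3 of 9 SRSF mRNAs (SRSF3, SRSF5 and SRSF9) differed by limma, as did 19.7% of all tested genes. The other 23 tested members lay between -0.20 and 0.19.

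Input calls moved with the scale and the fit. The main fit gave each gene 1 spread for inputs and footprints together. Fitted on the inputs alone, 27.8% of genes were called, against 16.2% in the fit on footprints alone. The order of 7.82% and 31.6% in the main fit was thus turned round. That input fit called 2 members higher (SRSF5 and SRSF11) and 4 lower (HNRNPA1, HNRNPM, SRSF2 and SRSF9). On log2(TPM + 1) as deposited 5 members were higher (HNRNPR, SRSF4, SRSF5, SRSF10 and SRSF11) and SRSF9 was lower, in a fit that called 2269 entries higher and 318 lower. The mRNA share of TPM was 4.23% and 4.51% in QKI7 and 3.72% and 3.99% in vector inputs. HNRNPA1 was not called on that scale (-0.22, limma adjusted p = 0.0805). Quantile normalization gave 66 genes higher and 123 lower, with HNRNPA2B1 and HNRNPH1 higher and HNRNPA1 lower, against 37 and 173 in the main analysis. The stricter floor gave HNRNPA2B1, HNRNPH1 and SRSF5 higher and HNRNPA1 lower, with 35.1% of genes called. HNRNPA1 shares sequence with the pseudogene entry HNRNPA1P10, which held 16.5 and 18.9 TPM in vector and 20.8 and 21.3 TPM in QKI7 inputs. With that entry added to HNRNPA1, a choice made after seeing the data, its input change was -0.24 (limma adjusted p = 0.00379). A further pseudogene entry, HNRNPA1P33, was also higher as deposited in QKI7 than in vector inputs and was not added.

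In footprints the QKI7 comparison called 8 of 25 members, 3 higher and 5 lower. That is 32.0% of the members, close to the 31.6% of all tested genes called (17.2% higher and 14.4% lower). All 8 were hnRNP mRNAs (8 of 16) and 0 of 9 SRSF mRNAs passed by limma (1, SRSF1, at an unadjusted p under 0.05, which 42.7% of all tested genes reached); the difference between the families was not tested. SRSF1 was called lower with equal sums, with quantile normalization, with no floor (there with SRSF5) and without QKI7 footprint replicate 2. Equal sums without centring gave 2 members higher and 6 lower, SRSF1 among them, with 376 genes higher and 549 lower in all, against 462 and 386 in the main analysis. With no floor 1 of 31 members was higher and 9 lower, with 855 genes higher and 944 lower in all. HNRNPU and HNRNPUL1 were not called there, and HNRNPDL and HNRNPA1L2 were called lower. The family medians were near each other and near that of all genes, 0.00 for hnRNP, -0.05 for SRSF and -0.03 for all.

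HNRNPC, the core protein of the nuclear hnRNP particle, which binds uridine tracts, fell most. Its footprints were 3.09 and 3.23 TPM in vector and 1.76 and 1.92 TPM in QKI7 cells, a change of -0.65 (SE 0.0771, limma adjusted p = 0.000696) and a fold of 0.638. Its inputs were 13.8, 15.9, 15.0 and 14.8 TPM, which overlapped as deposited; on the centred scale both QKI7 inputs lay below both vector inputs, by 0.13 on average, and the difference was not called. HNRNPC lies on chromosome 14, 21209147 to 21269442.

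HNRNPH1, which binds G-rich RNA, went from 2.90 and 2.78 TPM to 1.95 and 2.08 TPM (-0.36, SE 0.0611, adjusted p = 0.00344). In its inputs the deposited TPM were higher with QKI7, 33.5 and 36.0 against 41.7 and 38.6 TPM, a difference among mRNAs of 0.07 that was not called. HNRNPK fell from 5.42 and 5.63 TPM to 4.16 and 4.26 TPM (-0.26, adjusted p = 0.0140). HNRNPA2B1 fell by 0.24 (adjusted p = 0.00696) and HNRNPA1 by 0.13 (adjusted p = 0.0495). For each of these 5 mRNAs both QKI7 footprint libraries lay below both vector libraries.

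HNRNPD rose most. Its footprints were 1.66 and 1.45 TPM in vector and 2.34 and 2.33 TPM in QKI7 cells, a change of 0.72 (SE 0.0846, limma adjusted p = 0.000676) and a fold of 1.65. Its inputs, 20.7 and 23.6 TPM in vector and 24.3 and 22.7 TPM in QKI7 cells, overlapped as deposited; on the centred scale both QKI7 inputs lay just below both vector inputs (-0.05 on average, not called). HNRNPD lies on chromosome 4, 82352498 to 82373991. HNRNPUL1 rose from 0.55 and 0.48 TPM to 0.66 and 0.64 TPM (0.47, SE 0.103, adjusted p = 0.0107). HNRNPU, a scaffold of nuclear RNA, rose from 1.14 and 1.08 TPM to 1.21 and 1.2 TPM, a small step as deposited that is 0.25 relative to the median mRNA (adjusted p = 0.0352).

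**Figure D3:**
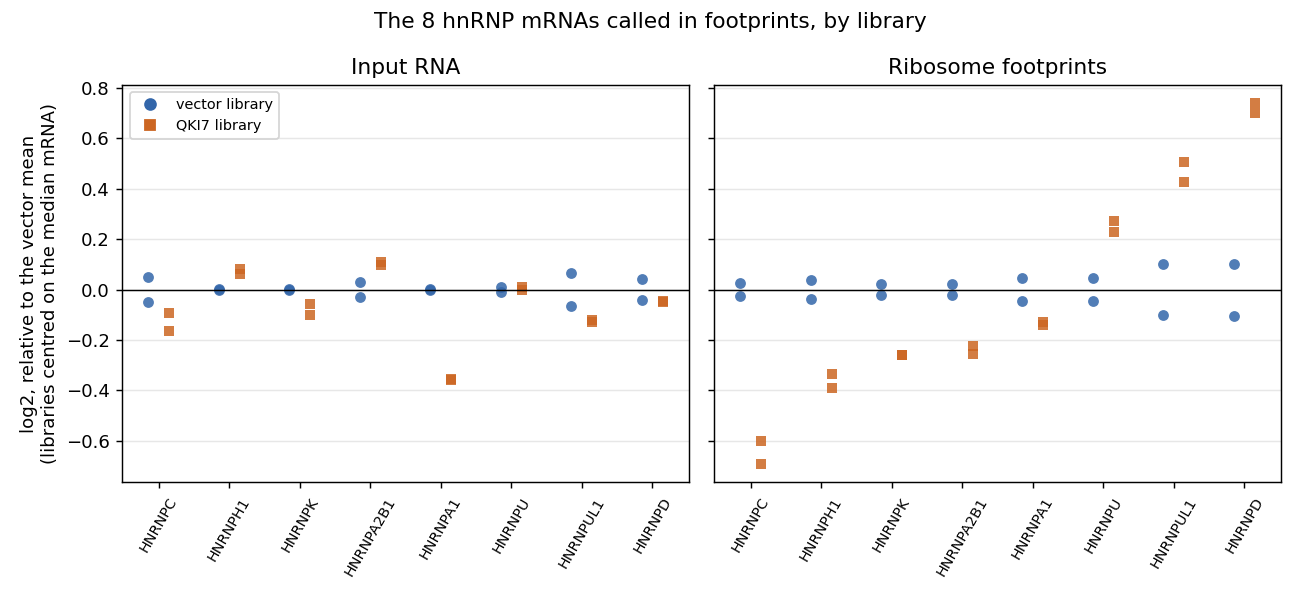
Centred log2 values of the 8 hnRNP mRNAs called in footprints, each relative to its vector mean, in inputs (left) and footprints (right); circles are vector libraries and squares QKI7 libraries. In footprints the 2 QKI7 points of each mRNA lie outside its vector points, from about the -0.65 of HNRNPC to the 0.72 of HNRNPD on average, while in inputs HNRNPA1 alone was called in the main fit.

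Calls for HNRNPC and HNRNPD in footprints held in each of the 17 alternative analyses run. Fitted on the 4 footprint libraries alone, which leaves fewer degrees of freedom, they were the only 2 members called, out of 16.2% of genes; the other 6 had adjusted p from 0.0611 (HNRNPH1) to 0.276 (HNRNPU). HNRNPA1 and HNRNPU kept their calls least often. HNRNPA1 kept its footprint call in 1 of 8 analyses without 1 library, its value turned to 0.11 under quantile normalization, and it was -0.08 with HNRNPA1P10 added (adjusted p = 0.111). HNRNPU kept its call in 2 of 8 analyses without 1 library. Under quantile normalization HNRNPA2B1 was at -0.034 and HNRNPK at -0.059 (limma adjusted p = 0.595 and 0.534). HNRNPK was also lost with the stricter floor, HNRNPA2B1 on the deposited scale, and HNRNPUL1 with no floor (0.25, adjusted p = 0.145) and on the deposited scale (0.12, adjusted p = 0.572). Without vector footprint replicate 1, SRSF1 and SRSF11 were called as well, and without vector footprint replicate 2, HNRNPA3, HNRNPAB and SRSF7.

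Among SRSF mRNAs the footprint changes that came nearest were SRSF1 at -0.31 (SE 0.105, limma adjusted p = 0.0560) and SRSF7 at -0.36 (SE 0.18, adjusted p = 0.165). SRSF11 had the largest value, 0.48, with the largest SE, 0.251: its vector footprints were 0.40 and 0.23 TPM and its QKI7 footprints 0.32 and 0.47 TPM, which overlap. SRSF3 differed by 0.00 (SE 0.0818) and SRSF4 by 0.05. Among hnRNP mRNAs below the threshold HNRNPA0 had 0.39 (SE 0.154, adjusted p = 0.0901) and HNRNPA3 0.29. HNRNPAB, HNRNPDL, HNRNPF, HNRNPH3, HNRNPL and HNRNPM lay between -0.11 and 0.19.

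**Figure D4:**
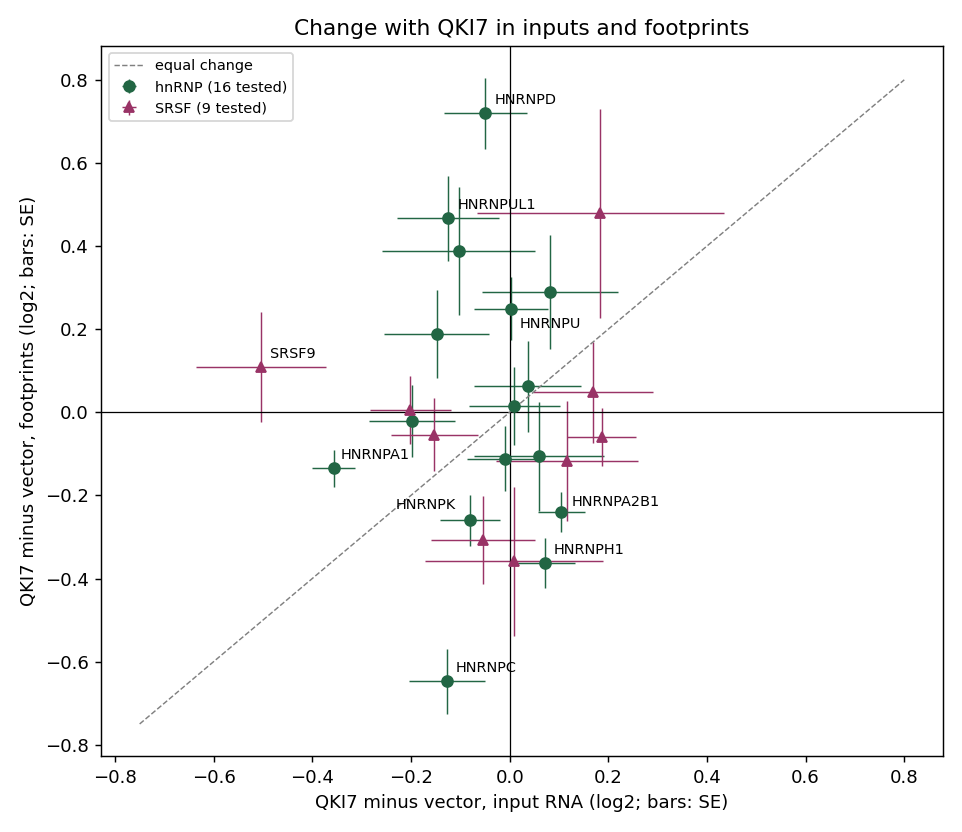
Change with QKI7 (log2, SE bars) in inputs on the horizontal and in footprints on the vertical axis for the 25 tested members, circles for hnRNP and triangles for SRSF; named points are those called in either comparison, and SRSF9. Points spread more along the footprint axis, from -0.65 to 0.72, than along the input axis, from -0.50 to 0.19.

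The interaction of library type and construct, the translation efficiency of the series title, asks whether footprint over input itself differed between QKI7 and vector cells. It was lower with QKI7 for HNRNPC, HNRNPH1 and HNRNPA2B1 and higher for HNRNPD and HNRNPUL1, 5 of 25 members (20.0%) against 12.8% of all tested genes, 9.68% higher and 3.16% lower. HNRNPD changed by 0.77 (SE 0.12, limma adjusted p = 0.00510), from -0.95 in vector to -0.18 in QKI7 cells. HNRNPUL1 changed by 0.59 (SE 0.146, adjusted p = 0.0319). HNRNPC changed by -0.52 (SE 0.109, adjusted p = 0.0177), from 0.66 to 0.14. HNRNPH1 changed by -0.43 (SE 0.0864, adjusted p = 0.0148) and HNRNPA2B1 by -0.34 (SE 0.0675, adjusted p = 0.0142). These values share the libraries of the input and footprint comparisons. Of the SRSF mRNAs 0 of 9 passed by limma (2, SRSF5 and SRSF9, at an unadjusted p under 0.05, which 30.7% of all tested genes reached), with values from the -0.37 of SRSF7 to the 0.61 of SRSF9 (adjusted p = 0.371 and 0.0658). SRSF9 was called with quantile normalization and with the stricter floor, in fits that called 13.6% and 32.1% of genes.

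HNRNPD was the only member whose efficiency call held in each analysis without 1 library. Leaving out vector input replicate 1, QKI7 input replicate 1 or QKI7 input replicate 2 left HNRNPD alone. Leaving out vector input replicate 2 left HNRNPD, HNRNPC and HNRNPA2B1. In each of these fits fewer of all tested genes were called. Without vector footprint replicate 2 more of all genes were called, with HNRNPA1, HNRNPAB, SRSF7 and SRSF9 added. Without QKI7 footprint replicate 1 HNRNPUL1 was lost and SRSF5 added. Over the libraries left out HNRNPD lay at 0.66 to 0.87, HNRNPUL1 at 0.48 to 0.69 and HNRNPC at -0.57 to -0.47. HNRNPH1 lay at -0.48 to -0.40 and HNRNPA2B1 at -0.38 to -0.32. On log2(TPM + 1) as deposited, 0 members were higher and 5 lower (HNRNPA2B1, HNRNPC, HNRNPH1, HNRNPK and SRSF5), in a fit that called 207 entries higher and 1254 lower. HNRNPD had 0.30 there (limma adjusted p = 0.102) and HNRNPUL1 0.11 (adjusted p = 0.506). HNRNPUL1 was also not called with quantile normalization (0.45, adjusted p = 0.0739) and with no floor (0.47, adjusted p = 0.147).

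The 13 untested members were low or not protein-coding. HNRNPR was just under the floor, at a mean of 0.198 TPM in footprints, and SRSF10, with 3.88 to 5.23 TPM in inputs, had 0.10 to 0.13 TPM in footprints. SRSF4, just above the floor, had 0.24 to 0.27 TPM. HNRNPA1L2, HNRNPLL and HNRNPUL2 had input means of 1.48, 1.08 and 1.63 TPM and footprint means of 0.158, 0.04 and 0.05 TPM. HNRNPCL1 and SRSF8 were under 1 TPM in input mean, and HNRNPCL2, HNRNPCL4, HNRNPH2 and SRSF12 at or under 0.0225 TPM; HNRNPCL3 was listed at 0 in all 8 libraries.

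Several of these entries overlap or copy another gene, so their values are uncertain. HNRNPUL2-BSCL2, a read-through transcript annotated as non-coding, held 13.3, 14.49, 16.4 and 16.1 TPM in inputs, while HNRNPUL2 itself held 1.07, 1.41, 1.79 and 2.23 TPM. HNRNPH2 was near 0, while the read-through entry RPL36A-HNRNPH2 held 6.02, 7.21, 7.67 and 7.69 TPM in inputs. HNRNPA1L2 and the HNRNPCL genes are near copies of HNRNPA1 and HNRNPC.

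Genes that work with both families were set beside them in 5 lists. Of 22 SR-related and SR-binding proteins 18 were tested, and 17 of them had a lower footprint over input than the median mRNA in vector cells, with a median of -2.54. Of all 2686 tested genes 1349 lay below 0 there, with a median of -0.01. With QKI7 5 of the 18 rose and 0 fell in footprints, 27.8% against the 31.6% of all tested genes, such as LUC7L3 (0.83, limma adjusted p = 0.000113), a U1-associated protein, and SRRM2 (0.72, adjusted p = 0.000247), a large scaffold of nuclear speckles; the list median was 0.18, that of all genes -0.03. Of 28 tested hnRNP-like RNA-binding proteins without an HNRNP symbol 8 rose and 1 fell in footprints (32.1%), with KHSRP, a decay factor that binds AU-rich elements, at 0.96 (adjusted p = 0.000676), and ILF2 at -0.33 (adjusted p = 0.0124). The list median was -0.02.

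Of 41 tested core spliceosome genes 1 rose and 7 fell in footprints, 19.5% against the 31.6% of all tested genes, with a median of -0.11. SNRPB, an Sm protein, was among those that fell, at -0.67 (limma adjusted p = 0.0169). In inputs SNRPD2, another Sm protein, fell by 0.86 (adjusted p = 0.000152) as the only one of the 41 called (2.44%, against 7.82% of all tested genes). Of 7 tested genes of nonsense-mediated decay and the exon junction complex EIF4A3 fell in inputs and footprints (-0.59 and -0.43, adjusted p = 0.0348 and 0.0424) and SMG9 rose in footprints (0.70, adjusted p = 0.0395). That is 14.3% of the 7 in inputs and 28.6% in footprints, against 7.82% and 31.6% of all tested genes. Of 7 tested kinases, phosphatase subunits and import receptors of these proteins 0 passed by limma in any QKI7 comparison, with medians of -0.20 in inputs and -0.13 in footprints. At an unadjusted p under 0.05 by limma, 0 differed in inputs and 2, CLK1 and CLK3, in footprints. Of all tested genes 19.7% and 42.7% reached it.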

How the data were processed

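The 4 groups of 2 libraries were taken from the sample labels, and the 8 columns of the table were matched through the sample titles. The authors deposited 1 table of TPM with 2 decimals. RSEM 1.2.31, STAR and GRCh38 appear in the submitters' processing notes, without roles or settings. The sources used here do not give strand use.

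Protein-coding entries other than histone genes (18718 by RefSeq symbol or older symbol) were rescaled to a sum of 1000000 per library, log2(value + 1) was taken, and each library was shifted so that the median of its deviations from the gene means was 0. The 2686 genes whose deposited TPM averaged 1 or more over inputs and 0.2 or more over footprints entered limma 3.58.1 in R 4.3.3 (4 group means, eBayes with trend, 4 residual degrees of freedom). P-values were two-sided, Benjamini-Hochberg adjusted over all tested genes, with a threshold of 0.05. The smallest p that an exact permutation test allows with 2 against 2 libraries is 0.333.

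Alternatives were the deposited scale, equal sums without centring, quantile normalization, other floors, a pseudocount of 10, fits on the groups compared alone, a replicate block, leaving out each library, and HNRNPA1P10 added to HNRNPA1. Tested on simulated data for the 2686 genes, with 200 genes changed each time, the fit called 78.0% (inputs), 75.0% (footprints) and 57.0% (translation efficiency) of those changed by 1 on the log2 scale, and 21.5%, 13% and 0% of those changed by 0.5. False calls numbered 17, 8 and 5 in these comparisons with a change of 1, and 0 in each with a change of 0.5. The data called more genes in inputs (210), in footprints (848) and for translation efficiency (345) than the 200 changed there. The adjusted threshold depends on that number, so these rates need not hold for the data.

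Given with values for every library or in full are members called in a QKI7 comparison, the 3 highest and lowest in footprint over input per family, and HNRNPA1, HNRNPA2B1, HNRNPC, HNRNPK, HNRNPU, SRSF1, SRSF2, SRSF3 and SRSF7; up to 3 called genes per direction of each other list could be named. The families and lists were chosen with earlier results of these data known; the members of each family then follow from the symbols. No shared batch or culture is given in the labels.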

Additional observations from a re-analysis of the deposited data

Results flagged for a closer look

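The footprint-over-input value differed between QKI7 and vector cells, by the interaction test over all tested genes (limma, Benjamini-Hochberg adjusted), for 5 hnRNP mRNAs, in a test that called 12.8% of all tested genes. HNRNPD was 0.77 higher with QKI7 (SE 0.12, adjusted p = 0.00510) and HNRNPUL1 0.59 higher (SE 0.146, adjusted p = 0.0319). HNRNPC changed by -0.52 (SE 0.109, adjusted p = 0.0177), HNRNPH1 by -0.43 (SE 0.0864, adjusted p = 0.0148) and HNRNPA2B1 by -0.34 (SE 0.0675, adjusted p = 0.0142). In inputs these 5 lay between -0.13 and 0.10 and none was called in the main fit. HNRNPA2B1 and HNRNPH1 were called higher in inputs with quantile normalization and with the stricter floor, where 7.04% and 35.1% of genes were called. Without vector input replicate 1, QKI7 input replicate 1 or QKI7 input replicate 2 the calls for the other 4 were lost and HNRNPD alone remained. Fewer of all tested genes were called in these fits. On the deposited scale the calls for HNRNPD and HNRNPUL1 were lost. That for HNRNPUL1 was also lost with quantile normalization, with no floor and without QKI7 footprint replicate 1.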

How the results depend on the processing

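Deviations of same-numbered libraries correlated between -0.0621 and 0.0249 over the 6 pairs of groups, so no pairing by replicate number was seen. This does not tell whether same-numbered libraries came from 1 culture, since library noise can hide it. With the replicate block, 1 member was called in inputs, 6 in footprints (HNRNPA1 and HNRNPU lost, adjusted p = 0.0682 and 0.0526) and 5 for translation efficiency.

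Counts of members called moved by over 1.5 times as follows. In inputs the count of 1 became 6 on the deposited scale, 2 with equal sums, 3 with quantile normalization, 4 with the stricter floor (at least 5 and 1 TPM), 2 with a pseudocount of 10 and 6 in the fit on inputs alone. The shares of all genes called in these fits were 44.6%, 9.16%, 7.04%, 35.1%, 8.27% and 27.8%, in place of 7.82%. The deposited scale tested 28 members and the stricter floor 15. In footprints 8 became 4 on the deposited scale and 2 in the fit on footprints alone, where 8.2% and 16.2% of genes were called in place of 31.6%. In vector footprint over input 24 became 13 with the stricter floor, which tests 15 members and called 85.6% of genes in place of 79.8%. Without 1 library the counts ranged from 1 to 2 in inputs, 6 to 10 in footprints, 1 to 9 for translation efficiency, 22 to 24 for footprint over input in vector and 20 to 23 in QKI7 cells. The shares of all tested genes called moved with the library left out as well. Equal sums moved the footprint median of all genes to -0.13 and gave 376 genes higher and 549 lower, against 462 and 386.

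The hnRNP median minus the SRSF median in footprint over input moved from 0.45 to -0.045 on the deposited scale and 0.88 with the stricter floor in vector cells, and from 1.14 to 0.23, 0.50 with no floor and 0.44 with the stricter floor in QKI7 cells. For translation efficiency it moved from 0.22 to -0.13 with the stricter floor. The cause was not tested.

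Signs turned for footprint over input on the deposited scale, where ribosomal RNA shares the footprint total and the median of all entries is -1.81 in vector and -1.97 in QKI7 cells. In vector cells this gave HNRNPA0 -0.72, HNRNPA1 -1.62, HNRNPC -1.92, HNRNPDL -0.79, HNRNPF -1.71, HNRNPK -1.16, HNRNPM -2.08, SRSF3 -0.22 and SRSF7 -1.60. In QKI7 cells it gave HNRNPA0 -0.64, HNRNPA1 -1.66, HNRNPDL -1.11, HNRNPF -1.91, HNRNPK -1.54, HNRNPM -2.11 and SRSF3 -0.27. With no floor the vector values were HNRNPA2B1 0.012, HNRNPAB 0.48, HNRNPD 0.048, HNRNPH1 0.27, HNRNPH3 0.015 and HNRNPL 0.15, and the QKI7 values HNRNPA3 0.038 and HNRNPL 0.036; the genes that set 0 differ there. HNRNPM was -0.44 in vector and -0.31 in QKI7 cells with the stricter floor, and -0.051 in vector cells with equal sums. HNRNPA1 turned to 0.11 in the footprint comparison under quantile normalization. Footprints near 0.2 TPM rest on values with 2 decimals, and SRSF11 has the largest SE of the members (0.251).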

Other observations

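4 pseudogene entries with HNRNP symbols were left out by the rule on symbols. HNRNPA1P10 held 11.6 and 10.8 TPM in vector and 10.4 and 10.2 TPM in QKI7 footprints, more than any member but HNRNPA1, and its ratio to HNRNPA1 was 0.260 and 0.276 in vector inputs, 0.355 and 0.388 in QKI7 inputs, and 0.503 to 0.614 in footprints. HNRNPA1P33 held 4.80 and 6.44 TPM in vector and 8.51 and 9.35 TPM in QKI7 inputs and was listed at 0 in all 4 footprints. HNRNPA3P1 and HNRNPKP3 stayed at or under 0.33 TPM. Reads that fit a gene and its copy equally cannot be assigned from this table.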
